A study of Mus musculus with 8 samples.

Results

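The miR-17 seed family is a group of microRNAs (miRNAs) whose mature strands carry the same seed, the stretch of bases 2 to 8 that pairs with target mRNAs. Its members were chosen by name and by host cluster: mmu-miR-17 and mmu-miR-20a from the miR-17-92 cluster, mmu-miR-20b and mmu-miR-106a from miR-106a-363, and mmu-miR-93 and mmu-miR-106b from miR-106b-25. Of these 6 mouse miRNAs, 5 had probes under their own name among the 611 mouse miRNAs of the array, and all 5 were among the 153 miRNAs detected widely enough to be tested. miR-106a had no probe of its own name.

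The arrays measured small RNA of basal progenitors sorted by flow cytometry from mouse cerebral cortex. 4 arrays held cells of embryonic day 13 (E13) and 4 held cells of embryonic day 16 (E16), all labelled WT, with no treatment named. The series describes 4 biological replicates from 3 litters per stage, so replicates of a stage can share a litter and the p-values measure the spread between these samples. The markers and gate of the sort, the strain and the sex are not given in the sources used here.

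Basal progenitors are the dividing cells that lie above the ventricular surface of the developing cortex and give rise to most of its excitatory neurons. The miR-17-92 cluster and its paralogs are made as polycistronic transcripts, in which several hairpins are cut from a single primary RNA. They are known for promoting proliferation and survival, with cell cycle inhibitors and the pro-apoptotic factor Bim among their known targets, and miR-17-92 is known for expanding cortical progenitor pools. Members with the same seed are expected to share many targets, while their host clusters are transcribed from different chromosomes.

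The mature sequences are shown because the members differ by few bases, and because each array probe reads these bases. They are RefSeq sequences on GRCm38.p6, written 5′ to 3′ with the seed in capitals.
miR-17: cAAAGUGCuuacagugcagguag
miR-20a: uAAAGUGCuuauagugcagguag
miR-20b: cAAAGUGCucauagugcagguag
miR-106a: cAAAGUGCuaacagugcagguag
miR-93: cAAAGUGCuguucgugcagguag
miR-106b: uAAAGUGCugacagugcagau
The seed is identical in all 6. Among 1679 mature mouse miRNA names of the RefSeq table, 7 (0.417%) have this seed, the seventh being miR-6383, which is not among the names on the array.

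Relative to miR-17, with positions counted from 1 at the 5′ end, miR-106a has U10A, miR-20a has C1U and C12U, and miR-20b has U10C and C12U. miR-93 has U10G, A11U, C12U and A13C, and miR-106b has C1U, U10G and G20A and ends 2 bases earlier. No substitution falls in the seed. Sequence distance did not follow the host cluster: miR-17 differs from its cluster partner miR-20a by 2 bases and from miR-106a of the X chromosome by 1, while miR-93 and miR-106b of the same cluster differ by 5.

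On GRCm38.p6 the mature miR-17 lies at chr14:115043684-115043706 and miR-20a at chr14:115044183-115044205, both on the plus strand. miR-20b lies at chrX:52742159-52742181 and miR-106a at chrX:52742541-52742563, both on the minus strand. miR-93 lies at chr5:138165574-138165596 and miR-106b at chr5:138165787-138165807, both on the minus strand and within the gene Mcm7, which encodes a subunit of the replicative helicase. No RefSeq gene other than a miRNA gene overlaps the first 4.

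**Figure D1:**
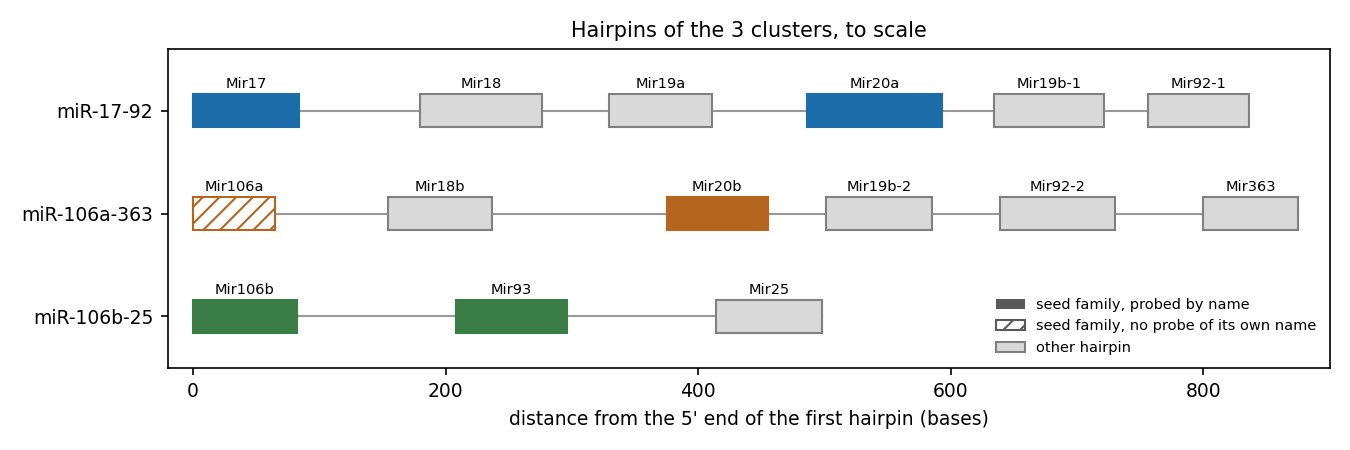
Hairpins of the 3 clusters drawn to scale, with the distance in bases from the 5′ end of the first hairpin on the horizontal axis. The miR-17-92 cluster holds 6 hairpins in 836 bases, miR-106a-363 holds 6 in 875 bases and miR-106b-25 holds 3 in 498 bases; filled coloured boxes are family members with probes of their own name, the hatched box is miR-106a, and grey boxes are other hairpins.

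Each measured member had a pair of probes, DNA oligonucleotides that pair with the 3′ part of the miRNA. The probe with the higher mean signal stands for the member. These chosen probes are shown because they set which members the array can tell apart; capitals mark bases that do not pair with miR-17.
miR-17 probe: ctacctgcactgt
miR-20a probe: ctacctgcactAtaagcac
miR-20b probe: ctacctgcactAtGagcact
miR-93 probe: ctacctgcacGAACag
miR-106b probe: aTctgcactgtCagcac
The miR-17 probe has 13 bases, against a median of 17 over the 1759 mouse probes, of which 20.0% have 13 bases or fewer. It pairs along its whole length with miR-106a as well, and the array's annotation lists both miR-17 probes for both miRNAs. What is called miR-17 here is therefore the sum of whatever miR-17 and miR-106a bound, 2 members from different clusters. The same probe has 1 mismatch to miR-20a and 1 to miR-20b. The miR-20a and miR-20b probes each have 1 mismatch to the other miRNA. The miR-93 probe has at least 3 mismatches to every other member and the miR-106b probe at least 2. The share of signal that came from pairing with another member was not tested.

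Signals were scaled on each array to the 75th percentile of the 126 probes detected on all 8 arrays, so a log2 scaled signal of 0 equals that reference and -5.96 is the floor. The reference ranged from 109 to 748 units of processed signal, and from 76 to 206 miRNAs were well above background per array. The E16 replicate 4 array was lowest in both. Slides 2 and 3 held both stages and slide 1 a single E16 array, but all E13 arrays sat in one slide row and all E16 arrays in the other, so position on the slide and stage cannot be told apart. Of the 5 marker lists of other cell types, the blood (7 miRNAs), endothelial (2), mesenchymal (5) and epithelial (5) lists had no miRNA detected on any array. The neuronal list had all 8 of its miRNAs detected somewhere among the E13 arrays and 7 of 8 among the E16 arrays. Its summed scaled level ran from 1.14 to 1.39 at E13 and from 0.542 to 1.88 at E16. Of the 7 tested, 3 were called lower and 4 were not called, where 26.1% of all tested miRNAs were called lower. The part of the neuronal list in the family's values was not tested. No defining miRNA of basal progenitors was at hand. miR-9 and miR-9*, abundant in neural progenitors and neurons, were detected on all 8 arrays.

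miR-17, as its shared probe reads it, fell 2.05-fold from E13 to E16 and miR-20b fell 1.49-fold, both past the threshold of an adjusted p of 0.05 in limma with Benjamini-Hochberg adjustment over all 153 miRNAs. miR-20a and miR-93 were lower by 1.38-fold and 1.24-fold without passing, and miR-106b had nearly equal means. So 2 of the 5 members were called lower and 0 higher, where 26.1% of all tested miRNAs were called lower and 7.19% higher. The E16 arrays lay wholly below the E13 arrays for 3 of the 5 members, and for 30.7% of all tested miRNAs; they lay wholly above for 0 members and for 7.84% of all tested. The median stage difference of the members was -0.47 on the log2 scale, beside -0.40 over all 153. With 5 members these shares are descriptions, and nothing particular to the family is read from them.

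The scaling sets this level. With the 75th percentile taken over all mouse probes the median of all tested miRNAs moved to 0.42, the calls changed from 40 lower and 11 higher to 16 lower and 47 higher (10.5% and 30.7%), and no member was called lower. Relative to the median of all tested miRNAs, the stage difference was -0.63 for miR-17, -0.17 for miR-20b, -0.07 for miR-20a, 0.09 for miR-93 and 0.41 for miR-106b. These relative values hardly depend on the factor an array is divided by, but they do on other processing. Under normexp background correction with quantile normalization they were -0.03 for miR-17, -0.43 for miR-20b, -0.43 for miR-20a, -0.25 for miR-93 and 0.03 for miR-106b, so the order of the members is not settled. Quantile normalization alone put miR-17 at the median of all tested miRNAs.

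**Figure D2:**
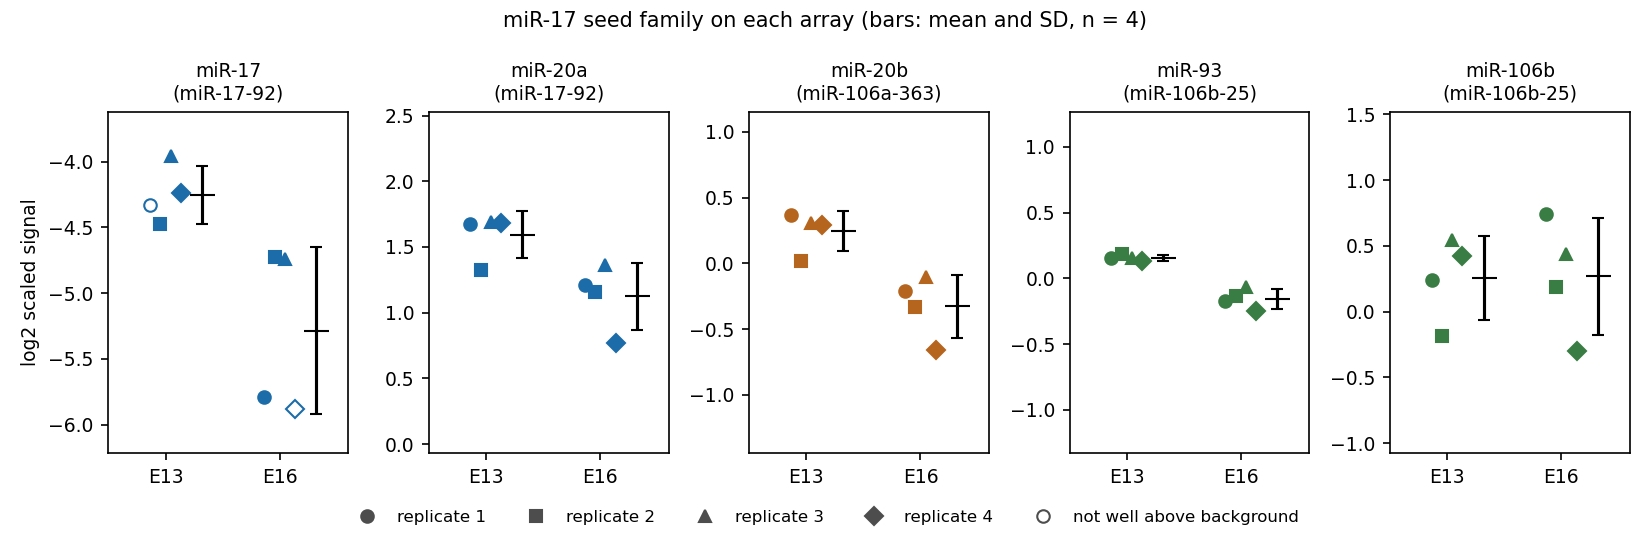
Log2 scaled signal of the 5 measured members on each of the 8 arrays, by stage, with each stage's mean. The E16 points of miR-17, miR-20b and miR-93 all lie below their E13 points, those of miR-20a overlap at E13 replicate 2, and those of miR-106b overlap widely.

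The miR-17-92 cluster is represented by miR-17 and miR-20a. miR-17, the first hairpin of the cluster, gave log2 scaled signals of -4.33, -4.48, -3.96 and -4.24 on E13 replicates 1 to 4. On E16 replicates 1 to 4 it gave -5.79, -4.73, -4.74 and -5.88. The stages did not overlap, but the signal was close to background throughout, at 1.84 to 31.6 units.

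It was well above background on all arrays except E13 replicate 1 and E16 replicate 4, and only 74.4% of its 78 spots were. Its mean was -4.25 ± 0.22 (SD, n = 4) at E13 and -5.28 ± 0.64 (SD, n = 4) at E16. The limma difference was -1.03 with a standard error of 0.30, a 95% interval of -1.72 to -0.35 and an adjusted p of 0.026. It ranked 30th from the lowest of the 153.

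The call for miR-17 ended without E13 replicate 1 (-1.06), E13 replicate 3 (-0.94) or E13 replicate 4 (-1.03). With slide as a block the difference was -0.91 with a limma adjusted p of 0.054, and it was -0.33 within slide 2 and -1.78 within slide 3. The difference was -0.06 under normexp background correction, -0.15 (limma adjusted p 0.71) under quantile normalization and -0.21 (limma adjusted p 0.57) under the all-mouse-probe percentile; the call ended under each of these. The shorter miR-17 probe of 12 bases was at the floor on 6 of 8 arrays and gives no second reading.

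miR-20a, the fourth hairpin of the same cluster, was measured far above background, with all 76 kept spots passing and a spread between spots of one array of 2.42% to 12.8%. Its log2 scaled signals were 1.67, 1.32, 1.69 and 1.68 on E13 replicates 1 to 4. They were 1.21, 1.16, 1.36 and 0.77 on E16 replicates 1 to 4. E13 replicate 2 lay among the E16 values, below E16 replicate 3, and the other E13 arrays lay above all of E16.

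The means of miR-20a were 1.59 ± 0.18 (SD, n = 4) and 1.12 ± 0.25 (SD, n = 4). The difference of -0.47 (SE 0.18, 95% interval -0.87 to -0.07) missed the threshold, with a limma adjusted p of 0.072. Without E13 replicate 2 it was -0.56 and passed, with an adjusted p of 0.045 in limma. It also passed, at limma adjusted p values from 0.016 to 0.0498, under normexp correction, median centring, total signal, the mean of all probes, no filter and in the authors' deposited table. The slide 2 difference was -0.24 and the slide 3 difference -0.92. Its second probe gave -0.50.

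Among the members, the miR-106a-363 cluster of the X chromosome could be read through miR-20b alone. Its probe has 1 mismatch to miR-20a, and the share of signal from miR-20a was not tested. The log2 scaled signals of miR-20b were 0.37, 0.02, 0.31 and 0.29 on E13 replicates 1 to 4. On the E16 arrays they were -0.21, -0.33, -0.10 and -0.66. Every E16 array was below every E13 array, with E13 replicate 2 nearest to E16.

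The means of miR-20b were 0.25 ± 0.16 (SD, n = 4) and -0.33 ± 0.24 (SD, n = 4), and all 73 kept spots were well above background. The difference was -0.57 (SE 0.17, 95% interval -0.96 to -0.18), with an adjusted p of 0.027 in limma. The second probe gave -0.76. The call ended without E13 replicate 1 (-0.53), E13 replicate 3 (-0.55), E13 replicate 4 (-0.56) or E16 replicate 2 (-0.57), with limma adjusted p values of 0.071 to 0.079. With slide as a block the value was -0.63, with an adjusted p of 0.052 in limma, and it was -0.41 within slide 2 and -0.96 within slide 3.

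Nothing can be said of miR-106a separately, since its only probes on the array are those listed for miR-17. The other strands and neighbours of its cluster gave little more: miR-18b and miR-20b* were not well above background on any array, and miR-363 was so on 1 E13 array.

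The miR-106b-25 cluster, within Mcm7, is represented by miR-93 and miR-106b. miR-93 had the most even values of the family at E13, at 0.15, 0.19, 0.16 and 0.13 on replicates 1 to 4. At E16 it gave -0.18, -0.13, -0.06 and -0.25. The stages did not overlap.

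The means of miR-93 were 0.16 ± 0.024 (SD, n = 4) and -0.16 ± 0.078 (SD, n = 4). The difference of -0.31 (SE 0.13, 95% interval -0.60 to -0.02) did not pass, with an adjusted p of 0.089 in limma, whose estimate of spread is drawn toward that of all miRNAs. It passed under normexp correction (limma adjusted p 0.011), with no filter (0.018) and with the mean of all probes (0.032). It was -0.27 within slide 2 and -0.39 within slide 3. The second probe of miR-93 gave -0.46.

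miR-106b, the first hairpin of the cluster, varied most among the strongly detected members. Its log2 scaled signals were 0.24, -0.19, 0.54 and 0.42 on E13 replicates 1 to 4, and 0.75, 0.19, 0.44 and -0.30 on E16 replicates 1 to 4. The highest and the lowest array of all 8 were both of E16.

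The means of miR-106b were 0.25 ± 0.32 (SD, n = 4) and 0.27 ± 0.44 (SD, n = 4). The difference was 0.01 (SE 0.26, 95% interval -0.57 to 0.60), with an adjusted p of 0.97 in limma, an interval that still holds the differences measured for miR-20a and miR-93. It was 0.29 within slide 2 and -0.78 within slide 3, where the only E16 array is replicate 4. Without E16 replicate 4 it was 0.20. The second probe gave 0.09.

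Within a stage the lowest array was often the same one. E16 replicate 4 was the lowest E16 array for 5 of the 5 members, and E13 replicate 2 the lowest E13 array for 4 of the 5, miR-93 being the exception. Of all 153 tested miRNAs, ties counted, 71.2% were lowest on that E16 array and 58.8% on that E13 array, so this is no trait of the family. Leaving out E16 replicate 4, the array with the fewest detected miRNAs, left miR-17 at -0.84 and miR-20b at -0.46, both still called lower with adjusted p values of 0.039 and 0.031 in limma. Of all 153 tested miRNAs, 35.3% were then called lower.

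**Figure D3:**
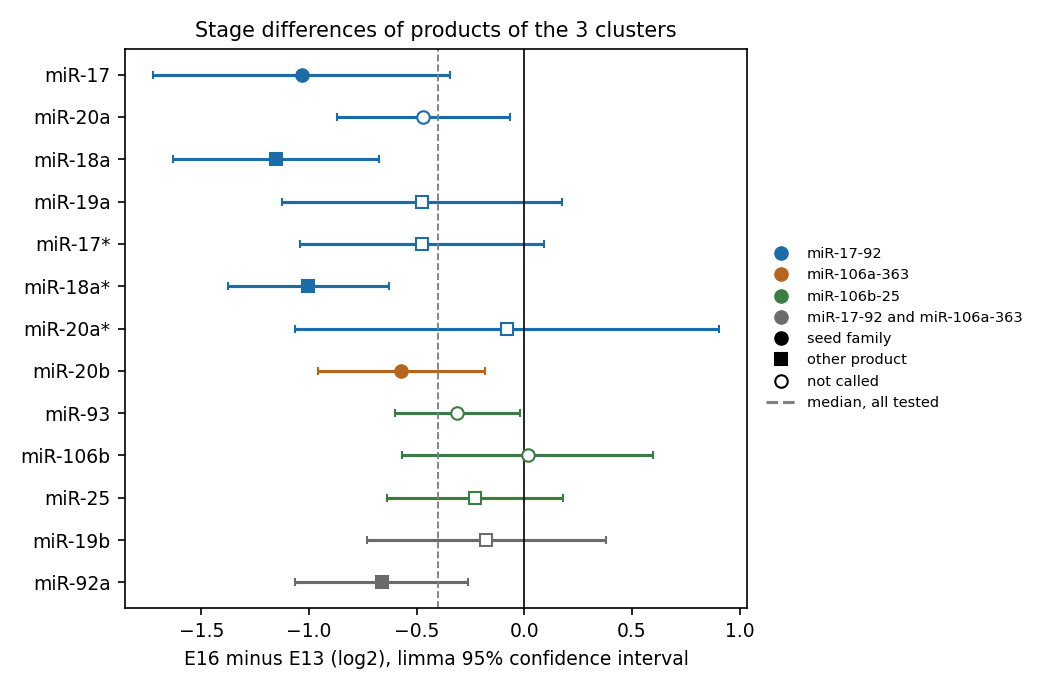
Stage difference, E16 minus E13, on the log2 scaled signal for each member and for the other tested products of the 3 clusters, with 95% intervals from limma. miR-17 and miR-20b among the members, and miR-18a, miR-18a* and miR-92a among the other products, are called lower; the interval of miR-106b lies around 0.

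The ratio of a pair of members within an array does not depend on the factor an array was divided by, though it does depend on background correction, and its change between stages compares their stage differences. Of 10 pairs, 4 include the miR-17 probe, which also pairs with miR-106a, and cannot be classed by cluster. Of the other 6, 1 lies within a cluster and 5 between clusters. An exact two-sided permutation test over the 70 assignments of arrays to stages can give no p below 0.029. In 4 pairs the stages did not overlap and the test gave that smallest p, with an adjusted p of 0.071 over the 10 pairs, so 0 pairs passed 0.05 after adjustment. Passing would have needed at least 6 of the 10 pairs at that smallest p, so the test had little room to pass any. Of these 4, 3 lie between clusters and 1 includes the miR-17 probe. All but miR-20a to miR-20b include miR-106b, so they are not separate observations. With 1 classed pair within a cluster, nothing is read from this about pairs within against between clusters. How often pairs of other miRNAs separate the stages was not computed.

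The log2 ratio of miR-20a to miR-106b was 1.44, 1.51, 1.15 and 1.26 on E13 replicates 1 to 4. On E16 replicates 1 to 4 it was 0.46, 0.97, 0.92 and 1.07. It was thus lower at E16 on every array, by 0.48 on the log2 scale between means of 1.34 ± 0.16 (SD, n = 4) and 0.86 ± 0.27 (SD, n = 4). The change was -0.53 within slide 2 and -0.14 within slide 3.

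The ratio of miR-20b to miR-106b was 0.13, 0.20, -0.24 and -0.13 on E13 replicates 1 to 4. At E16 it was -0.96, -0.52, -0.54 and -0.35. It changed by -0.59 between means of -0.01 ± 0.21 (SD, n = 4) and -0.59 ± 0.26 (SD, n = 4), and again the stages did not overlap. The change was -0.70 within slide 2 and -0.17 within slide 3, and in the authors' deposited table it was -0.49 with overlapping stages. The ratio of miR-17 to miR-106b changed by -1.05 without overlap, but by -0.06 with overlapping stages under normexp correction (exact permutation p = 0.77).

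The remaining non-overlapping pair, miR-20a to miR-20b, had the tightest ratio of the family. It was 1.31, 1.31, 1.39 and 1.39 on E13 replicates 1 to 4 and 1.42, 1.49, 1.46 and 1.42 on E16 replicates 1 to 4. The means thus differed by 0.10 on the log2 scale between stages. Their probes have a single mismatch to each other's miRNA. The change of this ratio was 0.18 with the mean of all probes, 0.17 within slide 2, -0.00057 under normexp correction and -0.05 in the authors' deposited table, so its direction is not settled.

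Within the miR-106b-25 cluster, miR-93 to miR-106b changed by -0.33 (exact permutation p = 0.29, adjusted p = 0.32, stages overlapping), and was 0.39 within slide 3. These members of a cluster were not shown to differ in their stage differences, nor to be alike. miR-20b to miR-93 changed by -0.26 and miR-20a to miR-93 by -0.16, with exact permutation p values of 0.086 and 0.34 and overlapping stages. The ratio of miR-17 changed by -0.57 to miR-20a, by -0.72 to miR-93 and by -0.46 to miR-20b, with exact permutation p values of 0.057 to 0.20 and overlapping stages. Under normexp correction these turned to 0.40, 0.22 and 0.40, without overlap, so their direction is not settled.

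**Figure D4:**
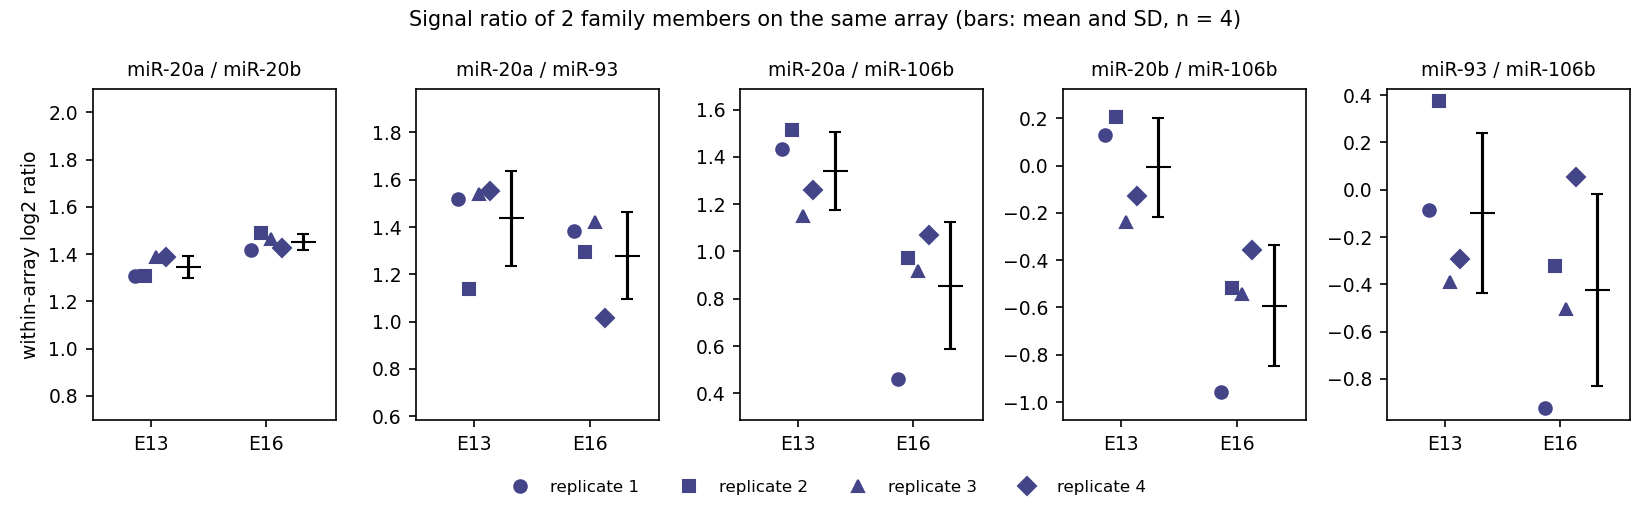
Within-array log2 ratios of member pairs on each array, by stage, with stage means. A change between stages is the gap between the members' stage differences. Of the 10 pairs, 0 passed 0.05 after adjustment in the exact permutation test. The height of a ratio depends on the probes and is not compared. The ratios of miR-20a and of miR-20b to miR-106b are lower on every E16 array than on any E13 array. Pairs with miR-17 and the pair miR-20b to miR-93 are not drawn.

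The other products of the 3 clusters form a list of 15 mature miRNAs, all on the array, of which 8 were tested. 3 were called lower, 0 higher and 5 neither, and their median stage difference was -0.48, beside -0.40 over all tested miRNAs and 26.1% called lower. All 3 that fell have a hairpin in miR-17-92, as do 7 of the 8 tested.

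miR-18a, from the hairpin next to miR-17, gave 0.16, -0.33, 0.12 and 0.07 at E13 and -0.96, -1.17, -0.83 and -1.63 at E16. It fell by 1.15 on the log2 scale (SE 0.21, limma adjusted p 0.0023), and its opposite strand miR-18a* fell by 1.003 (limma adjusted p 0.0013) from signals detected on 3 E13 and 2 E16 arrays. miR-92a, which is made from both the chromosome 14 and the X cluster, fell by 0.66 (limma adjusted p 0.017). Its call ended without E13 replicate 1 (-0.64) or E16 replicate 3 (-0.61).

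The other tested products gave a range of values, and differences between products were not tested. miR-19b, made from both of those clusters and counted as an oncogenic product of miR-17-92, was at -0.18, and miR-19a, its partner with the same seed, was at -0.48. miR-17* and miR-20a*, the opposite strands of the miR-17 and miR-20a hairpins, were at -0.48 and -0.08. miR-17* passed without E16 replicate 1 (-0.68, limma adjusted p 0.035). miR-25, the partner of miR-93 and miR-106b, was at -0.23. Tested products with a hairpin in miR-17-92 gave stage differences from -1.15 (miR-18a) to -0.08 (the dim miR-20a*), and tested products of miR-106b-25 from -0.31 to 0.01. These ranges were not tested against each other. Beyond miR-18b, miR-20b* and miR-363, the untested products were miR-19a*, miR-92a* and miR-93*, detected on no array, and miR-106b*, detected on 1 array of each stage.

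The stem cell miRNAs of the miR-290 and miR-302 families, which carry a related seed, were represented by 19 miRNAs, and 0 were well above background on any array.

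Across the 71 non-member miRNAs detected on all 8 arrays, those with a profile nearest to the mean profile of miR-20a, miR-20b, miR-93 and miR-106b were miR-130a, miR-107, miR-9, miR-345-5p and miR-151-5p. The measure was the root mean square gap of log2 values centred on each miRNA's own mean, over 8 arrays. It was 0.086 for miR-130a, 0.126 for miR-107, 0.148 for miR-9, 0.149 for miR-345-5p and 0.164 for miR-151-5p, against a median of 0.398 over the 71. The members' own gaps to that mean, which they helped to make, were 0.080 for miR-20a, 0.125 for miR-20b, 0.156 for miR-93 and 0.248 for miR-106b. The gap of miR-106b was larger than those of these 5, which were picked as the nearest of the 71. It was smaller than the median gap of the 71, so nothing particular to miR-106b is read from it.

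**Figure D5:**
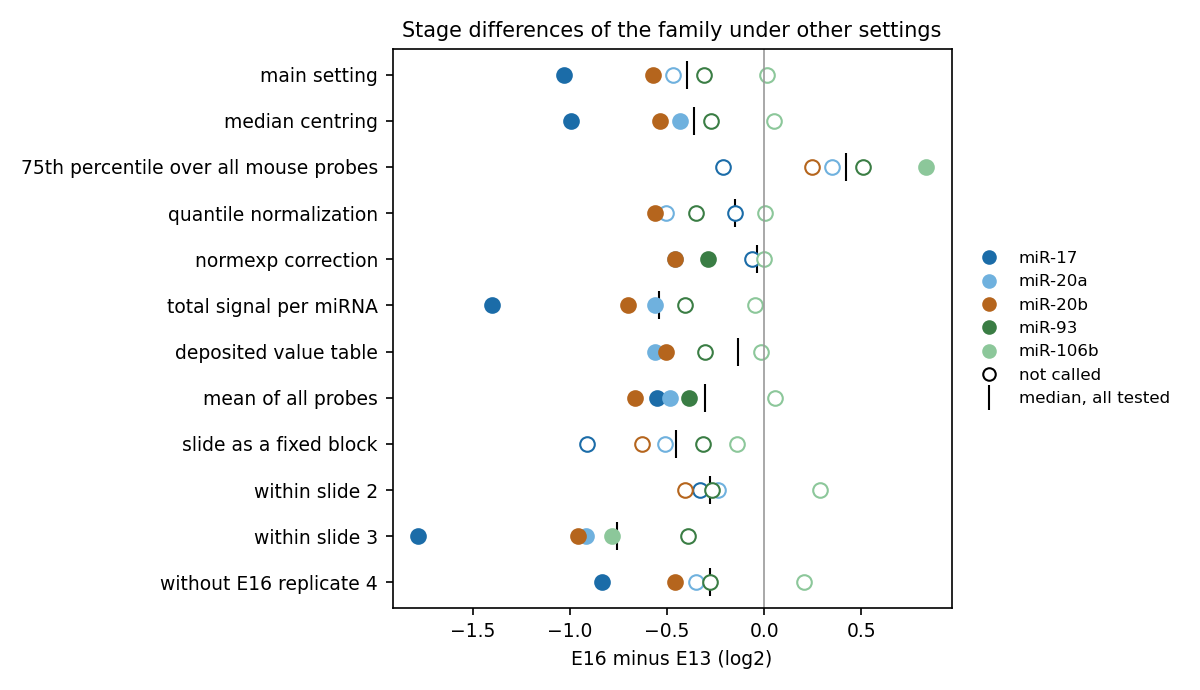
Stage difference of each member under the main setting and a selection of its alternatives, on the log2 scale. Taking the 75th percentile over all mouse probes moves miR-20a, miR-20b and miR-93 above 0, to 0.35, 0.25 and 0.51, and miR-106b changes sign under several settings.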

How the data were processed

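The files are one-colour Agilent miRNA array scans, 1 per sample. The authors extracted intensities with Agilent Feature Extraction 10.7.3.1, per the file headers, and the deposited processed-signal intensity is background-subtracted. The members and lists were chosen with earlier results of these data known. Control and outlier spots were left out, the 10 spots of a probe were averaged, and signals were scaled to an array's 75th percentile over the probes detected throughout. A floor was set and log2 taken. miRNAs well above background on at least 4 of 8 arrays were tested with limma 3.58.1 in R 4.3.3, with no covariate. Member pairs were tested by exact permutation. The log2 values of the authors' deposited table, which holds 86 miRNAs and no miR-17, served as an alternative; its normalization is not stated. Named miRNAs are all members, the tested products of the 3 clusters, and the 5 nearest profiles. Alternatives changed scaling, background correction, signal column, filter, probe choice, slide, replicate block, test options and single arrays. The number of arrays limits the precision. Procedures were tested on simulated data. Sequences are from RefSeq.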

Additional observations from a re-analysis of the deposited data

Results flagged for a closer look

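Among 26 groups of 4 arrays looked at, 1 array stood apart from the other replicates of its stage. For miR-20a at E13, replicate 2 (1.32) lay below the other replicates (1.67, 1.69 and 1.68), with a gap of 0.945 of the group's range, above Dixon's 95% critical value for 4 samples. Chance gives a gap above that critical value in about 5% of groups.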

How the results depend on the processing

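The family has 2 members called lower. That count was 4 of 5 with no filter on dim probes, 4 with the mean of all probes, 4 within slide 3, 1 with quantile normalization, 1 of 4 with detection required on all 8 arrays, and 0 with slide as a fixed block, within slide 2 and under the all-mouse-probe percentile; leaving out single arrays gave 0 to 3. Of all miRNAs tested, 57.5% were called lower within slide 3, 16.3% within slide 2, 25.5% with slide as a block, 27.8% with no filter, 27.5% with the mean of all probes, 15.0% with quantile normalization and 13.3% with detection on all 8 arrays. Slide 3 holds 1 E16 array, replicate 4, which is assumed to vary like the E13 arrays there, so calls within it rest on that array. The count was 0 without E13 replicate 1, 3 or 4, 1 without E16 replicate 2 and 3 without E13 replicate 2. Of all tested miRNAs, 19% were called lower without E13 replicate 1, 22.2% without E13 replicate 3 and 20.9% without E13 replicate 4. The share was 22.9% without E16 replicate 2 and 26.1% without E13 replicate 2. The percentile over all mouse probes also gave 1 member called higher (miR-106b), 1 other cluster product called higher and 0 called lower, and 7 of 8 products were called lower within slide 3. Under that percentile, which fell on probes near background, miR-20a turned to 0.35, miR-20b to 0.25 and miR-93 to 0.51. miR-106b turned to -0.018 in the deposited table, -0.00062 under normexp, -0.14 with slide as a block, -0.049 with total signal and -0.78 within slide 3, and leaving out single arrays gave -0.14 to 0.20, negative without E13 replicate 2 (-0.13), E16 replicate 1 (-0.14) or E16 replicate 3 (-0.04). The cause was not tested. No pair passed after adjustment under any alternative that could reach the threshold. The smallest possible permutation p was 0.333 within slides and 0.125 with the replicate block, and neither can reach it. The replicate numbers showed no sign of pairing the samples, though this check cannot exclude it. Same-number correlations ran from -0.15 to 0.27, and 0 E13 arrays and 1 E16 array correlated best with their own number. With the replicate block 1 member was called lower, and 22.9% of all tested miRNAs. Signal close to background limits miR-17, and 4 arrays per stage limit the rest.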
